A study of Homo sapiens with 6 samples.

Results

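The TTD peaks on chromosome 2 are the 4176 regions of this chromosome among the 31569 regions of HepG2 chromatin that were enriched by the TTD, the tandem Tudor domain of UHRF1. They were chosen by the chromosome named for each peak, and the peaks themselves were defined from measured pulldown signal, so the number, positions and widths of the peaks are given as a description without a test. HepG2 is an established human liver cancer line. In chromatin interacting domain precipitation (CIDOP), a tagged reading domain takes the role that the antibody has in ChIP, here GST-tagged hUHRF1-TTD with native mononucleosomes. The study holds 6 libraries of HepG2 cells, of which 2 are TTD CIDOP, 2 are ChIP for H3K9me2 and 2 are input, with no treatment and no altered gene in any of them, and the peaks were made from the mean of the 2 TTD CIDOP replicates. The values below come from this pooled list, which gives the position and width of each peak and no height. There is therefore no error between replicates, and the 95% Wilson intervals given with shares cover counting error only.

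UHRF1 is a multi-domain protein of the nucleus that links histone marks to the maintenance of DNA methylation. Its TTD binds the tail of histone H3 methylated at lysine 9, its PHD finger reads the unmodified end of the same tail, its SRA domain binds hemimethylated CpG sites, and its RING domain adds the ubiquitin marks that recruit the DNA methyltransferase DNMT1. Methylation of lysine 9 in its di- and trimethylated forms is known for large silent domains, and CpG islands at the starts of active genes usually lack it.

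The sequences of the widest and the narrowest peaks show what such regions look like. The middle 200 bases of the 3 widest peaks (plus strand, hg38) and the whole of the narrowest peak are printed with each CpG, the site of DNA methylation, in capitals. The widest peaks lie beside SCN1A (chr2:166168311-166168510), in an intron of TFPI (chr2:187520956-187521155) and beside APOB (chr2:21060266-21060465), and the narrowest in an intron of DPYSL5 (chr2:26936411-26936570).
Peak 1 by width, beside SCN1A: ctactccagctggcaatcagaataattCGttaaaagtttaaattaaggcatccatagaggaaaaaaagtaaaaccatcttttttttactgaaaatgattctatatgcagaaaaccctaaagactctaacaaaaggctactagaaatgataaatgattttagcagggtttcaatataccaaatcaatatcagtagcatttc
Peak 2 by width, in TFPI: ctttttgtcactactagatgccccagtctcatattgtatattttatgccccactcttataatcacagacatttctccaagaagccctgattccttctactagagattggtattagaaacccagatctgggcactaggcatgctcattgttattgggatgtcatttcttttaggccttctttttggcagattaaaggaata
Peak 3 by width, beside APOB: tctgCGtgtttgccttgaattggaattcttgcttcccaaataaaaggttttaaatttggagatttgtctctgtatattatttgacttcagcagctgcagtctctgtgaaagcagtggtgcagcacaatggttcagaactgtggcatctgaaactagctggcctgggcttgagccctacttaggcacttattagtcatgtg
Narrowest, in DPYSL5: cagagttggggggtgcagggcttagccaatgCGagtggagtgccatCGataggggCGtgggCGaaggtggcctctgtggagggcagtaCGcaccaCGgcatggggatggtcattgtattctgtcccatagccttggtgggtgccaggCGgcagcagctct

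The 3 stretches from the widest peaks held 1, 0 and 1 CpG and had a GC content of 30.5%, 39.0% and 43.0%. The narrowest peak, 160 bp in all, held 7 CpGs at a GC content of 62.5%. Over all 4176 peaks the median GC content was 42.8%, with quartiles of 39.2 and 46.6%. The printed stretches were picked by width and stand for themselves, since the middle of a wide peak can differ from the whole, as in the widest, with 37.3% GC over its full length.

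Gene starts in and outside peaks are shown in the same way. The 200 bases before the RefSeq start (GRCh38.p14, strand of the gene, CpGs in capitals) are shown for 4 genes that the results turn on. FABP1 (chr2:88128063-88128262, minus strand), the liver fatty acid binding protein, and HOXD1 (chr2:176188468-176188667, plus strand), a homeodomain factor of the HOXD cluster, lay wholly in peaks. IRS1 (chr2:226799821-226800020, minus strand), the insulin receptor substrate, had no peak in these bases, and in RPS7 (chr2:3575060-3575259, plus strand), a ribosomal protein gene, the peak ended within them.
FABP1: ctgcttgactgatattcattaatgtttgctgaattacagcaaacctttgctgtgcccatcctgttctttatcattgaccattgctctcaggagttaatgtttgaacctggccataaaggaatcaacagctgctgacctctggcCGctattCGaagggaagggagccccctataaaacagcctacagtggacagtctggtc
HOXD1: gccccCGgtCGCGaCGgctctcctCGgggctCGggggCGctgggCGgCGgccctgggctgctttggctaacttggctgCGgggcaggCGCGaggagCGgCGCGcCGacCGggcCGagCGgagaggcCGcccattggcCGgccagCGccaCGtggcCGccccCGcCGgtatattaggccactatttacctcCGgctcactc
IRS1: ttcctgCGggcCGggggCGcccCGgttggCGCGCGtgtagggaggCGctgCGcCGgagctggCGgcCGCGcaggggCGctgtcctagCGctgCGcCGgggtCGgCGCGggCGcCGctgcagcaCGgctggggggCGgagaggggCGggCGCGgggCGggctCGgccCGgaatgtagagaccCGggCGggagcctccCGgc
RPS7: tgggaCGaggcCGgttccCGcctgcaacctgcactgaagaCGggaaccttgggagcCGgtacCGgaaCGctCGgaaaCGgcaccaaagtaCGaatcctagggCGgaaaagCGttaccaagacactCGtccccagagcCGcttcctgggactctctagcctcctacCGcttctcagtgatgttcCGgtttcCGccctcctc

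These 4 stretches held 2 CpGs for FABP1, 27 for HOXD1, 33 for IRS1 and 17 for RPS7. The median was 8 over the 2764 RefSeq starts of chromosome 2 that were used. Their promoters run from 250 bases before the start to 50 after it, so this median may rest on a longer window. Of the 200 bases, 200 lay in a peak for FABP1 and HOXD1, 0 for IRS1 and 91 for RPS7. A CpG-rich start was thus seen both inside and outside a peak.

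Chromosome 2 held more peaks than any other chromosome, 13.2% of the peaks and 14.7% of the bases in peaks on 7.84% of the length of the genome. It carried 17.2 peaks per Mb, and 5.67% of its length (13.7 Mb) lay in peaks, a share referred to as cover. Among the 22 autosomes it stood second for both values, after chromosome 20 with 22.8 peaks per Mb and a cover of 7.04%, and close to chromosome 6 with 16.7 peaks per Mb and 5.33%. The other 21 autosomes had a median of 9.11 peaks per Mb (5.97 to 22.8) and a median cover of 2.63% (1.26 to 7.04%). The number of copies of each chromosome in HepG2, an aneuploid line, was not analysed here, and its part in these densities was not tested.

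**Figure D1:**
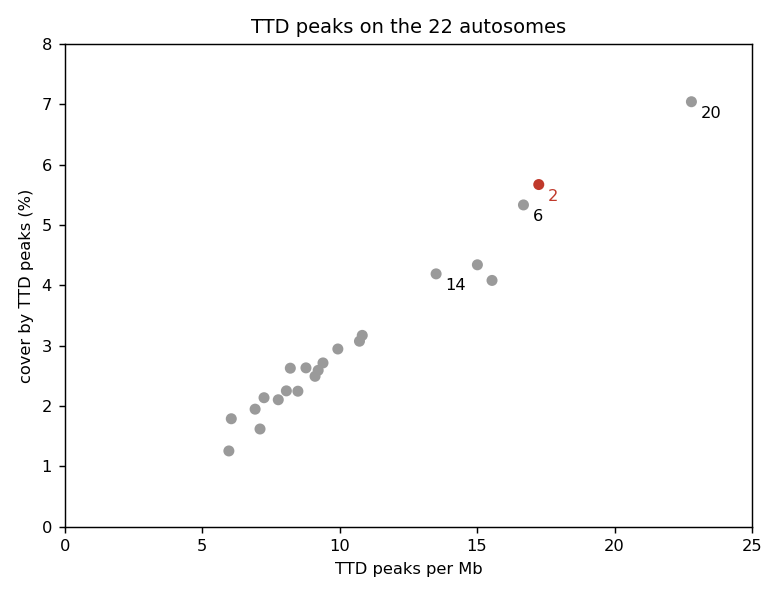
Number of TTD peaks per Mb (horizontal axis) and percent of the length in peaks (vertical axis) for the 22 autosomes, 1 point each. Chromosome 2 (red) lies at 17.2 peaks per Mb and 5.67%, below chromosome 20 and next to chromosome 6.

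The peaks of chromosome 2 had a median width of 2390 bp, with quartiles of 1470 and 3940 bp, and ranged from 160 to 35620 bp. The 27393 peaks of the other chromosomes had a median of 2230 bp and quartiles of 1350 and 3610 bp. All 3 quartiles were thus higher on chromosome 2 than over the other chromosomes together, though chromosome 6 had a like median of 2395 bp. On chromosome 2, 148 peaks or 3.54% (3.02 to 4.15%) reached 10 kb, the largest share of any autosome, against 578 or 2.11% (1.95 to 2.29%) elsewhere. Chromosomes 6 and 14, with 3.09 and 3.11%, lay within this interval of chromosome 2, and chromosome 20 had 3.00%. With peaks under 1 kb apart joined, the share was 5.79% on chromosome 2 and 5.32% on chromosome 6, the next in order. Widths of 20 kb or more were found for 21 peaks of chromosome 2 and 54 of all others. A small number of wide peaks carried much of the cover: the 695 peaks of 5 kb or more held 43.1% of the bases in peaks, and the 897 widest held 50% of them. At the other end, 83 peaks were narrower than 0.5 kb.

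**Figure D2:**
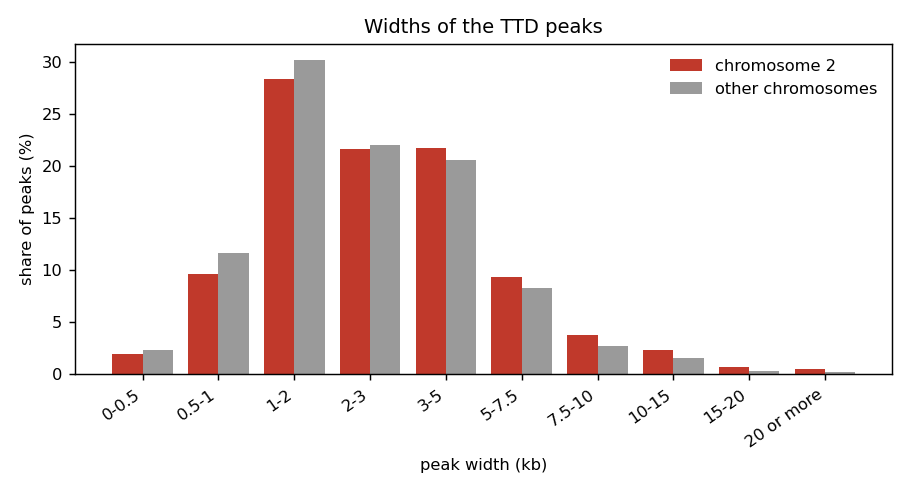
Share of peaks (vertical axis, percent) in 10 classes of width (horizontal axis, kb), for the 4176 peaks of chromosome 2 (red) and the 27393 peaks of the other chromosomes (grey). From 3 kb upwards each class holds a larger share of the chromosome 2 peaks, and below 3 kb a smaller one.

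The 10 widest peaks lay mostly outside protein-coding genes. The widest of all (chr2:166150601-166186220, 35.6 kb) began 1387 bp from the start of SCN1A, the neuronal sodium channel gene, and overlapped its antisense RNA SCN1A-AS1. The next (chr2:187503481-187538630, 35.2 kb) lay inside TFPI, which encodes the inhibitor of tissue factor in coagulation, with 99.0% of its bases in introns. The third (chr2:21044381-21076350, 32 kb) ended 308 bp before the start of APOB, the structural protein of low density lipoprotein made by hepatocytes, and touched no protein-coding gene. CPS1, the entry enzyme of the urea cycle in liver mitochondria, held the eighth (chr2:210530501-210557100, 26.6 kb).

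The remaining wide peaks were found in noncoding stretches. A peak of 31.8 kb (chr2:234668361-234700110) overlapped LINC01173, and one of 25.5 kb (chr2:234858361-234883820) lay 68197 bp from the start of SH3BP4, a regulator of endocytosis. A peak of 31.1 kb (chr2:215676191-215707310) overlapped LINC00607, and the nearest protein-coding start was that of FN1, 240118 bp away. A pair of 30.3 and 28.2 kb (chr2:62552751-62583050 and chr2:62518021-62546240) lay upstream of TMEM17, a gene of the ciliary transition zone, at 40857 and 6127 bp from its start. The last, of 26.5 kb (chr2:226166081-226192580), had IRS1 as its nearest start at 607240 bp. Of these 10 peaks, TFPI and CPS1 alone held one within a protein-coding gene.

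The narrowest peak did not stand in a cluster of its own. It lay in an intron of DPYSL5, a gene of neuronal growth, 8630 bp from the next peak on one side and 44850 bp on the other.

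The arms were divided at the alpha satellite array of the centromere, which the self-similarity of the sequence at the length of the repeat unit placed at chr2:92090001-94190000. It held 0 peaks. Both arms carried peaks at a like density, 18.5 per Mb on the p arm (1676 peaks, cover 5.89%) and 16.9 per Mb on the q arm (2500 peaks, cover 5.67%), each over bases of known sequence. The median widths were 2400 and 2380 bp. The q arm had the larger share of peaks of 10 kb or more, 102 or 4.08% against 46 or 2.74% on the p arm. The arms held 5.26 (q) and 5.18 (p) protein-coding genes per Mb.

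In 1 Mb bins the cover was very uneven. Over the 241 bins with at least 50% known sequence the median cover was 3.78%, with quartiles of 1.38 and 7.93% and a highest value of 38.9%. The number of peaks in a bin ranged from 0 to 71 with a median of 15. The 40 bins over 10% (18 on the p arm, 22 on the q arm) held 47.0% of all bases in peaks, and 8 bins exceeded 20%. At the low end, 50 bins were under 1% and 12 held no peak, 7 on the p arm and 5 on the q arm, among them those at the satellite array. The median bin of the p arm (3.71%) was like that of the q arm (3.88%). Chromosome 6 had a similar median of 3.65%, chromosome 14 a lower one of 2.45% and chromosome 20 a higher one of 6.82%, and their highest bins reached 27.8, 34.9 and 25.4%.

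**Figure D3:**
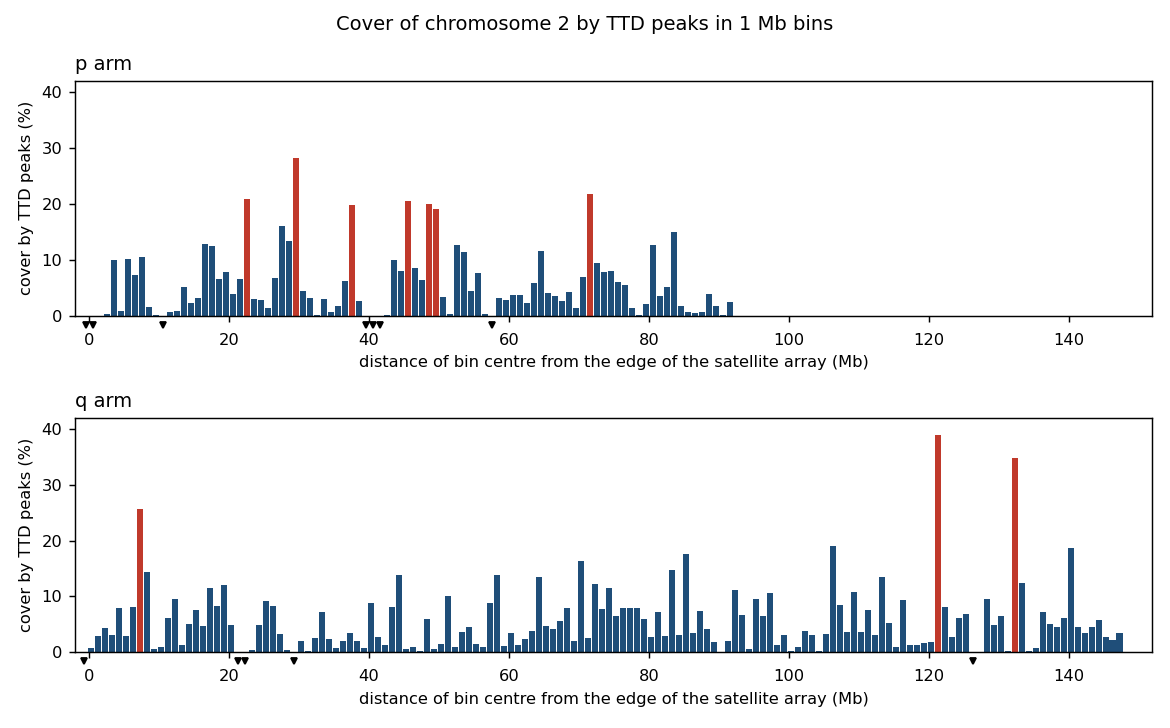
Percent of each 1 Mb bin in TTD peaks (vertical axis) by the distance of its centre from the edge of the satellite array (horizontal axis, Mb), for the p arm (top) and the q arm (bottom). Red bars are the 10 bins with the largest cover, 7 on the p arm and 3 on the q arm, and triangles mark the 12 bins without a peak; bins that overlap the array lie below 0.

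Dense and sparse stretches alternated along both arms rather than following a gradient from the centromere. In segments of 10 Mb the p arm peaked at 40 to 50 Mb from its tip (289 peaks, cover 9.59%) and at 60 to 70 Mb (264 peaks, 9.99%), with 50 to 60 Mb between them at 3.42%. The segment at the p arm tip, 0 to 10 Mb, had a cover of 3.17%, and the one with the satellite array, 90 to 100 Mb, of 2.57%. On the q arm the cover ranged from 2.72% at 120 to 130 Mb to 7.92% at 100 to 110 Mb. From 160 to 180 Mb it was 7.66 and 7.78%, and from 200 to 230 Mb it ran from 6.92 to 7.82%. Neighbouring bins were only weakly alike (Spearman's rho = 0.284 over 239 pairs of bins, given as a description, since adjoining bins share genes and base composition).

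The 10 bins with the largest cover held 18.2% of the bases in peaks on 4.13% of the length. The largest, 215 to 216 Mb (57 peaks, 38.9%), contained FN1, which encodes fibronectin, a plasma and matrix protein secreted by hepatocytes. Yet only 7.25% of its bases in peaks lay in protein-coding genes. The densest 100 kb (chr2:215656961-215756960), between FN1 and MREG, had a cover of 90.8%. Within the genes, FN1 had a cover of 16.1%, MREG, a gene of melanosome and lysosome transport, 16.6%, and ATIC, an enzyme of purine synthesis, 5.55%, while ABCA12, a lipid transporter of the skin, had 0 peaks.

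The second bin was alike in its layout. At 226 to 227 Mb (55 peaks, 34.9%), 9.90% of the bases in peaks lay in genes, and the densest 100 kb (chr2:226092581-226192580, 75.7%) had no protein-coding gene. IRS1, at the end of this bin (chr2:226731312-226799820, minus strand), had 43.4% of its body in 7 peaks but 0 in the 5 kb around its start. RHBDD1, a rhomboid protease gene next to it, had a cover of 2.90%.

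The third bin, 62 to 63 Mb (59 peaks, 28.2%), held the pair of wide peaks upstream of TMEM17, and its densest 100 kb (chr2:62507331-62607330) had a cover of 87.9%. TMEM17 itself was covered over 56.1% of its body. EHBP1, a gene of endosomal transport (chr2:62673851-63046487, plus strand), carried 15 peaks, and 99.2% of the 5 kb around its start lay in a peak. B3GNT2, a glycosyltransferase gene, reached 40.6% and COMMD1, which acts in copper handling of the liver, 8.17%.

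The other 7 bins had between 19.2 and 25.6% cover, and gene bodies took a larger part in them. At 101 to 102 Mb (25.6%) it was 56.2% of the bases in peaks, with TBC1D8, a gene of vesicle traffic, covered over 27.5% and MAP4K4, a stress kinase, over 32.9%. The bin at 20 to 21 Mb had the most peaks of any, 71, with a cover of 21.8%, HS1BP3 at 45.9% and LDAH, a lipid droplet hydrolase, at 19.1%. At 69 to 70 Mb (20.9%) ANTXR1, the anthrax toxin receptor gene, carried 16 peaks over 43.7% of its body, which is 103.14 kb in peaks. At 46 to 47 Mb (20.4%), SOCS5, a suppressor of cytokine signalling, was covered over 34.8%, EPAS1, the hypoxia factor HIF-2 alpha, over 26.7% and PRKCE, a protein kinase C, over 11.2%.

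The last 3 of the 10 bins lay between 42 and 55 Mb. At 43 to 44 Mb (20.02%) THADA carried 25 peaks over 29.5% of its body. At 54 to 55 Mb (19.8%) 85.9% of the bases in peaks lay in genes, the largest part among the 10 bins, with SPTBN1, a spectrin, at 29.1%, ACYP2, an acylphosphatase, at 20.98% and EML6 at 14.3%. At 42 to 43 Mb (19.2%) EML4, a microtubule-binding protein, was covered over 14.7% and MTA3, a subunit of the NuRD complex, over 8.91%.

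Peaks were clustered, with long stretches between the clusters. The median interval between adjoining peaks was 16105 bp, while the mean was 54686 bp. Of the 4175 intervals, 1684 or 40.3% were under 10 kb. At the other end, 52 stretches of 500 kb or more made up 19.5% of the chromosome, apart from the satellite array and unknown sequence. The stretch across the array itself ran from 90150401 to 94576450 (4.43 Mb).

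The longest stretches without a peak each held between 0 and 3 protein-coding genes. The second longest (chr2:114816611-117470360, 2.65 Mb) took 73.3% of DPP10, a subunit of neuronal potassium channels. The third (chr2:80319801-82498590, 2.18 Mb) took 22.5% of CTNNA2, the neuronal alpha-catenin, and the fourth (chr2:219820451-221984610, 2.16 Mb) the whole of EPHA4, a receptor of axon guidance. CNTNAP5, a neurexin-like gene, had 55.3% of its length in a stretch of 2.00 Mb (chr2:122521611-124520720), and LRP1B, a very large receptor gene, had 55.9% in one of 1.06 Mb (chr2:141069711-142131180). The stretch at chr2:224717961-225947630 (1.23 Mb) held DOCK10 and NYAP2, which act in lymphocytes and neurons.

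There were 2 stretches of the 10 with no protein-coding gene, at chr2:33946811-35988100 (2.04 Mb) and chr2:13530231-14600910 (1.07 Mb). The tenth (chr2:5936201-6918770, 0.983 Mb) held CMPK2 and RSAD2, a neighbouring pair of interferon-induced genes, and a small part of RNF144A. The GC content of the 10 stretches ran from 35.1 to 40.1%, beside 40.2% for the chromosome.

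Bins without a gene start mostly had little cover. The 37 bins without a protein-coding transcription start site (TSS) had a median cover of 0.291%, and 11 of them held no peak. The 101 bins with 1 to 4 TSSs had a median of 3.06%, the 69 with 5 to 9 one of 7.86%, and the 34 with 10 to 37 one of 5.92%. The highest cover in each of these classes was 10.1, 38.9, 25.6 and 12.4%. Over the 241 bins the cover had a Spearman's rho of 0.594 with the number of TSSs (Pearson's r = 0.252), 0.408 with GC content (r = 0.221) and 0.363 with the percent of bases in gene bodies (r = 0.243). These are descriptions over bins, which share base composition and genes with each other. The bin at 145 to 146 Mb was an exception among those with 0 TSSs, with 15 peaks, a median width of 7040 bp and a cover of 10.1%. It was chosen after its values were seen.

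Peaks lay mostly in introns and between genes. The midpoints of 2150 peaks or 51.5% (50.0 to 53.0%) were outside protein-coding genes, where 56.1% of the bases lie, and 1928 or 46.2% (44.7 to 47.7%) were in introns, with 41.4% of the bases. UTR exons held 60 midpoints (1.44%, of 1.40% of the bases) and coding exons 38 (0.910%, of 1.07%). The distance from the midpoint to the nearest TSS of a protein-coding gene had a median of 50469 bp, against 103526 bp for all positions of the chromosome. With the starts of genes of every type, noncoding ones included, the medians were 16880 and 26995 bp. Within 1 kb lay 84 peaks or 2.01% (1.63 to 2.48%), at 1 to 10 kb 636 or 15.2% (14.2 to 16.4%), and at 10 to 100 kb 2211 or 52.9% (51.4 to 54.5%), where positions of the chromosome gave 0.947, 7.74 and 40.5%. Beyond 100 kb lay 1245 or 29.8% (28.4 to 31.2%), below the 50.9% of positions. The peaks within 1 kb of a TSS were narrow, with a median of 1310 bp, against 2335, 2450 and 2420 bp in the other classes.

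At the TSS itself the cover dipped. In the 0.5 kb just downstream it was 4.49% over all 1247 protein-coding genes, under the 5.67% of the chromosome, while 1 to 1.5 kb upstream it reached 15.3%. Starts with a CpG-rich kilobase (GC of at least 55% and observed/expected CpG of at least 0.6) had the deeper dip. For these 709 genes the cover was 2.11% just downstream of the start and 17.7% at 1 to 1.5 kb upstream, and 20 starts or 2.82% (1.83 to 4.32%) lay inside a peak. For the 538 others it was 7.61% downstream and 12.3% upstream, and 46 starts or 8.55% (6.47 to 11.2%) lay inside a peak. In both classes the upstream side was higher than the downstream side at the same distance from 1 to 1.5 kb.

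**Figure D4:**
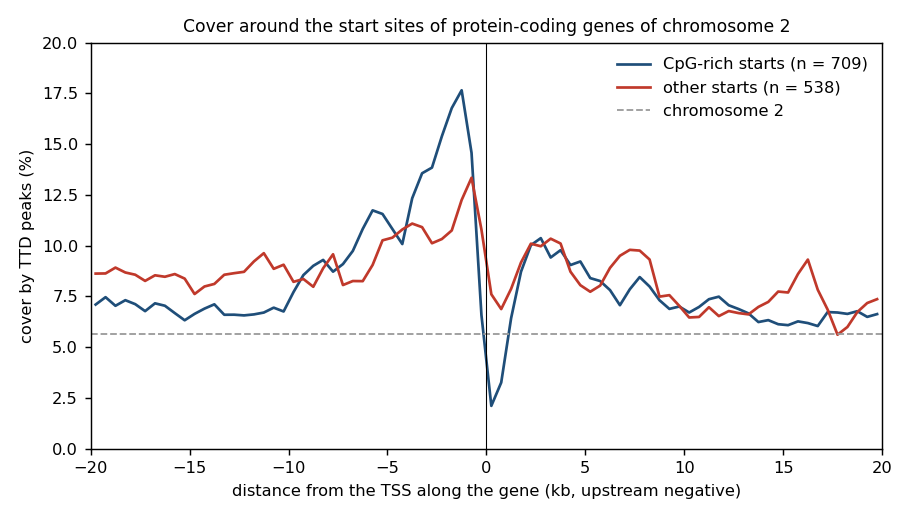
Percent of bases in TTD peaks (vertical axis) in steps of 500 bp by the distance from the TSS (horizontal axis, kb, upstream negative), over 709 CpG-rich starts (blue) and 538 other starts (red) of protein-coding genes of chromosome 2. The dashed line is the cover of the whole chromosome, 5.67%; near the start both curves drop, to 2.11% in the CpG-rich and to 6.88% in the other starts, between maxima on both sides.

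Inside genes the cover fell from start to end. In the 865 genes of 20 kb or more, cut into 5 equal parts, it was 8.13% in the first part, then 6.28, 6.07 and 5.72%, and 5.13% in the last. Genes of middle size were covered most, 7.62% for the 458 of 50 to 200 kb and 6.997% for the 101 of 200 to 500 kb. The 24 genes of 500 kb or more had a cover of 2.32% although 23 of them held a peak, and the 240 genes under 10 kb had 3.67%, with 31 holding a peak. In all, 680 of 1247 genes or 54.5% had a peak in their body and 376 or 30.2% one in the 5 kb around their TSS, and the cover of all bodies together was 6.21%. Of these 376, the nearest peak lay upstream of the start in 217, over it in 66 and downstream in 93.

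Gene lists of liver and other functions were set beside the 54.5% of all genes with a peak in the body and the 6.21% pooled cover of all genes. Of 18 genes for lipid, sterol and sugar metabolism, 14 or 77.8% had a peak in the body, and together 7.78% of their bases lay in peaks. This value rested on IRS1, without which it was 5.88%, below that of all genes. FABP1 (chr2:88122982-88128062) was covered over 56.1% of its body and all of the 5 kb around its start, by a peak of 23350 bp. IRS1 followed with 43.4%. Of the 4 genes without a peak in the body, APOB had 43.8% of the 5 kb around its start covered, and ABCG5, a sterol transporter, 20.2%, while HADHA, a mitochondrial enzyme of fatty acid oxidation, and RETSAT, a retinol saturase, had none in either. INSIG2, which restrains sterol synthesis, had a cover of 12.0% in its body and 43.8% around its start.

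Of the 18 enzymes of nitrogen handling and detoxification, 14 or 77.8% had a peak in the body, beside 54.5% of all genes. The median length of the list was 73.7 kb, and 77.3% of all genes of 50 to 200 kb held a peak. Of the 14, 9 are overlapping UGT1A genes of 1 locus of 156 kb, with a cover of 15.4%. The list was covered over 12.7% of its bases with overlapping bodies counted once, against 6.05% for all genes counted in this way. CPS1 held 40.6% of the bases in peaks so counted, and without it the cover was 9.69%. Summed gene by gene, the list had 17.5%, and 16.5% without CPS1. CPS1 carried 8 peaks over 23.3% of its 201 kb, none of them in the 5 kb around its GENCODE start. AOX1, the aldehyde oxidase, also had 8, over 25.6%, and AGXT, the peroxisomal aminotransferase that removes glyoxylate, had 26.9%. The UGT1A genes, whose products couple bilirubin and drugs to glucuronic acid, share their last exons, so their peaks are partly the same ones. UGT1A3 had the largest cover of the list (39.3%) and UGT1A1 the smallest of the family (1.77%), though 54.6% of the 5 kb around the start of UGT1A1 lay in a peak. KYNU, an enzyme of tryptophan breakdown, had 84% around its start. CYP1B1, CYP26B1 and ACMSD had no peak in the body or around the start, and CYP20A1 had 12.9% around its start alone.

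Among 13 genes for secreted proteins and iron handling, 7 had a peak in the body, which is 53.8% beside the 54.5% of all genes, and the pooled cover was 17.99%. TFPI held 48.9% of these bases in peaks, and without it the cover was 11.2%. With 10 kb on each side of the bodies, 11 or 84.6% had a peak, beside 74.1% of all genes. TFPI stood first with 50.0% of its body and 56.2% around its start. IGFBP2, an insulin-like growth factor binding protein of the liver, had 38.5% and its neighbour IGFBP5 had 0 peaks. SLC40A1, the iron exporter ferroportin, had 34.4%. PROC, the anticoagulant protein C made in the liver, had none in its 10.8 kb and a peak of 4670 bp that ended 3357 bp before its start.

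The 22 neuronal and very long genes had the lowest pooled cover of the lists, 1.57%. A peak was held by 16 or 72.7% of them, beside 54.5% of all genes. Their median length was 630 kb. The 24 genes of chromosome 2 of 500 kb or more had a cover of 2.32%, and 95.8% held a peak. Of the list, KCNJ3, SCN2A, ZNF804A, KIF1A and DNER were among those that held none. Above the 6.21% of all genes stood 4 of the list, SCN1A, SCN9A, SCN3A and KCNH7 (6.69%). SCN1A had 5 peaks over 24.8% of its body and 73.8% of the 5 kb around its start. In the cluster of sodium channel genes that it belongs to, SCN9A had a cover of 15.8%, SCN3A of 7.13% and SCN2A of 0.

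Of 17 genes for immune receptors and cytokines 10 or 58.8% had a peak in the body, beside 54.5% of all genes, at a pooled cover of 11.3%. Without IL1R1 this cover was 5.62%. IL1B, which encodes the cytokine interleukin-1 beta, had the largest cover (57.7% of 7.07 kb), and IL1R1, the receptor for it, had 8 peaks over 47.2% and 85.7% around its start. CTLA4, GNLY and CXCR4 had no peak within 10 kb of their bodies. IL1A, IL1RL1, STAT4 and ZAP70 also held none in the body.

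In the HOXD cluster 1 of 10 genes or 10% had a peak in the body, beside 54.5% of all genes. The 10 genes are short, with a median of 3.11 kb, and 12.9% of all genes under 10 kb held a peak. HOXD1, at one end of the cluster, lay wholly inside a peak of 10340 bp (chr2:176181411-176191750). HOXD3, HOXD4, HOXD8 to HOXD13 and EVX2 had none in the body or around the start. HOXD3, the nearest, had 3.00% of its body with 10 kb on each side in this peak.

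Of 17 housekeeping genes, 5 or 29.4% had a peak in the body, beside 54.5% of all genes. The list had a median length of 21.8 kb, against 44.4 kb for all genes. A peak in the body was held by 43.4% of genes of 10 to 50 kb and 12.9% of shorter ones. Of the list, 10 or 58.8% had a peak in the 5 kb around the start, beside 30.2% of all genes. The nearest peak lay upstream in 8 of these 10, and in 217 of 376 over all genes. The pooled cover of the bodies was 7.20%, and 2.29% without RPL37A. With 10 kb on each side the count turned to 16 or 94.1% with a peak, above the 74.1% of all genes. The distance from the start to that peak was 59 bp in RPL31, 110 bp in RPS7 and 210 bp in CALM2. The largest cover was that of RPL37A, with 36.0% of its body and 61.0% around its start. HSPE1, the mitochondrial co-chaperonin, had no peak within 10 kb of its body. The body covers of these lists cannot be set against gene activity here, since expression was not analysed.

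**Figure D5:**
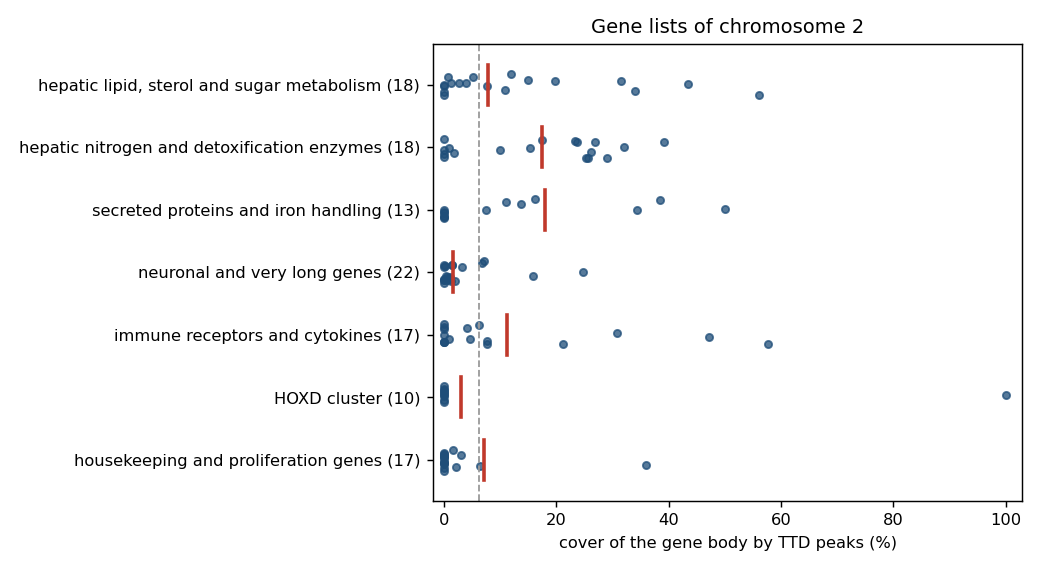
Percent of the gene body in TTD peaks (horizontal axis) for each gene of 7 lists (blue points, number of genes in brackets, jittered vertically), with the pooled cover of each list (red bar) and of all 1247 protein-coding genes (dashed, 6.21%). The pooled cover runs from 1.57% in the neuronal and very long genes to 17.99% in the secreted and iron handling genes, and HOXD1 stands alone at 100%.

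In base composition the peaks differed little from the chromosome. Their GC content was 42.4%, against 40.1% outside peaks, and their observed/expected CpG ratio was 0.205 against 0.227. The narrowest peaks, up to the first quartile of width, had 44.3% GC and 11.7 CpGs per kb, and the widest, above the last quartile, 41.7% and 8.52. The 65 peaks that lay over a TSS had a CpG ratio of 0.282, and those away from one 0.203. A ratio over 0.6 was found in 24 of the 4176 peaks.

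The letters of liver transcription factor motifs were counted on both strands, a search chosen after the data were seen. The core CAAAGTCCA of sites bound by the nuclear receptor HNF4 occurred 0.0292 times per kb in peaks and 0.0123 times outside. This is a ratio of 2.38, while the same letters read backwards gave 1.01. The core was found in the central 300 bases of 60 peaks or 1.44%. The share was 0.384% in the 801801 windows of 300 bases along the chromosome and 0.543% in the RefSeq promoters of the same length. The forkhead core TGTTTAC gave 0.191 per kb in peaks and 0.167 outside, a ratio of 1.15, and read backwards 0.921. These are matches of letters and say nothing of a bound factor.

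Of the 4 widest peaks with the HNF4 letters in their central 300 bases, 3 are shown by 100 bases around the match, on the strand that reads CAAAGTCCA, which is in capitals. They lay 116 kb from the start of ACTR3 (chr2:114006210-114006309, minus strand, peak of 7450 bp), in an intron of IWS1 near PROC (chr2:127455015-127455114, minus strand, 7400 bp) and in an intron of UXS1 (chr2:106127691-106127790, plus strand, 7090 bp).
Near ACTR3: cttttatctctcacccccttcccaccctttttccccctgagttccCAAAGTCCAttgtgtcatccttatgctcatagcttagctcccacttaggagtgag
IWS1 and PROC: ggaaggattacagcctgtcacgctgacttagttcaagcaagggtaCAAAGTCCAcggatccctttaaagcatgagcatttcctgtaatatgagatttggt
UXS1: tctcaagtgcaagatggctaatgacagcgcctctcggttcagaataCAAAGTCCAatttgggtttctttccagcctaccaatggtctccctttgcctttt
Outside the capitals these stretches held 0, 2 and 2 CpGs. The starts nearest to them were those of ACTR3 at 116147 bp, PROC at 36588 bp and ECRG4 at 64445 bp.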

How the data were processed

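TTD CIDOP, H3K9me2 ChIP and input were sequenced in 2 replicates each. Per the paper's methods and the submitters' notes, reads were trimmed (Trimmomatic 0.38) and aligned to hg38 (HISAT2 2.2.1) by the authors, who then computed RPKM signal in 10 bp bins with deepTools 3.3.2 and averaged the 2 TTD replicates. They found broad peaks on this mean with MACS2 2.1.1, dropped blacklisted regions and curated the list by hand for artifacts and large false positives. No input track or copy number correction is named for the peaks. The deposited list holds the start, end and width of each peak in bp and no score, and the depth behind each peak is unknown.

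Interval arithmetic was done in Python 3.11.15 with numpy 2.4.6 and pandas 2.3.3 on hg38 and GENCODE release 44, and tested on simulated data. Cover is the percent of known bases in peaks for bins and arms, and of the full length for chromosomes. Peaks were assigned to bins by midpoint, and each protein-coding gene had 1 TSS, the first base of the annotated gene. The satellite array is the longest run of 10 kb windows with over 50% of bases equal to those 171 bp on. The named loci are the 10 densest 1 Mb bins, 10 widest peaks and 10 longest stretches without a peak, each with up to 5 protein-coding genes. From 7 gene lists, those with the largest and smallest cover are named, with further members for comparison. Members and lists were chosen with earlier results of these data known, and the motif search and the split by CpG content were added later. RefSeq promoters were matched for 99 of 115 list genes. No test was made, since the list pools the replicates. As alternatives, peaks narrower than the median of all peaks were dropped, or joined peaks were used, or other bins, other TSSs or wider gene windows. Of the named items, 1 stretch, 2 genes and 1 sequence are not reported here. Signal tracks were not analysed here, and the soft-masked share was not computed.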

Additional observations from a re-analysis of the deposited data

How the results depend on the processing

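No paired analysis was possible because the list pools the replicates, and leaving out a replicate could not be done for the same reason. Chromosome 2 stood second among the autosomes for peaks per Mb and for cover with the wider peaks alone, with peaks under 1 kb apart joined and without unknown bases. With peaks at or above the median width alone, 2232 peaks remained by construction (9.22 per Mb), 11.2% of bins held no peak in place of 4.98%, 12.0% in place of 16.6% were over 10% cover, 31 in place of 9 stretches reached 1 Mb, and 15.8% in place of 17.2% of peaks lay within 10 kb of a TSS. Joining raised the share of 10 kb or more to 5.79%. Bins of 500 kb raised the largest cover to 65.8% and the share without a peak to 10.4%. With the TSSs of genes of every type, 36.5% of peaks (25.3% of positions) lay within 10 kb, at a median of 16880 bp, and with the nearest edge 18.8%. With 10 kb on each side, 11 of the secreted and iron handling genes, 2 of the HOXD cluster and 16 of the housekeeping genes had a peak, beside 924 of 1247 or 74.1% of all genes in place of 54.5%. The lists of liver metabolism had 16 and 15. In alternatives chosen after seeing the data, leaving out the gene with most bases in peaks brought the pooled cover of the secreted and iron handling genes to 11.2% (without TFPI), of the immune genes to 5.62% (IL1R1), of the HOXD cluster to 0 (HOXD1) and of the housekeeping genes to 2.29% (RPL37A), and of the lipid, sterol and sugar genes to 5.88% (IRS1). Of the other alternatives, none moved a share of peaks or bins beyond its 95% interval or another value, counts of genes included, beyond 1.5 times. Depth, peak heights and copy number are unknown here, so a narrow peak cannot be told from a weak one. Manual curation removed an unknown number of peaks. It was aimed at artifacts and large false positives, and its effect on the shares of wide peaks was not tested.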
